A study of Carica papaya with 12 samples.

Results

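Genes that work in the cell cycle or on chromosomes were followed across flower buds of 3 sexes and 2 sizes of papaya (Carica papaya). They are the 9 genes that the study's lists of developmental genes name Cyclin-D3-1, NACK1, KIFC1, TOP2, histone H3 isoform 1, histone H3 isoform 2, Shugoshin-1-like, NCAPD3 and RAD50, out of 27689 gene models in the count tables. Each gene was found by the identifier printed beside its name, and each had enough reads in these buds to be tested. Male and female buds came from 'AU9', a breeding material, and hermaphrodite buds from the commercial variety 'SunUp', all untreated and grown at one research station, so that for hermaphrodites sex and cultivar cannot be told apart. The 6 groups were male, hermaphrodite and female buds of 7–12 mm, which the labels call post-meiosis, and male, hermaphrodite and female buds of 1–6 mm, called pre-meiosis. Each group had 2 libraries of mRNA from ground whole buds, and how many buds or plants went into a library is not given in the sources used here. HiSeq2000 single-end reads gave replicate 1 and HiSeq2500 read pairs replicate 2, so the replicate number is also a sequencing platform.

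Plant organs grow first by cell division and then mainly by cell expansion. A dividing cell passes through an entry step governed by D-type cyclins, a phase in which DNA is copied and packed on newly made histones, and mitosis, in which chromosomes are condensed, held together at their centromeres, untangled and pulled apart before a new wall is laid between the daughter cells. Transcripts for these steps are commonly abundant where cells divide, in meristems and young floral organs, and scarce in organs that have stopped dividing. In whole buds, fewer dividing cells and less RNA per dividing cell cannot be told apart.

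Totals ranged from 12704714 to 16564137 counts over the libraries of replicate 1, and over those of replicate 2 from 4520811 to 8554135, which left each of the 9 genes with at least 19 counts in any library. The lowest count was that of Shugoshin-1-like in replicate 2 of the male 7–12 mm buds, and those of the other 8 genes were 50 or more. Levels are given as CPM, the counts of a gene scaled to one library size by TMM. The labelled sexes were set beside the summed level of 7 stamen and tapetum genes. At 7–12 mm it was 792 and 840 CPM in males, 1878 and 1482 in hermaphrodites and 0.547 and 2.74 in females. At 1–6 mm the sums were 1409 and 1097 CPM in male, 788 and 995 in hermaphrodite and 0.290 and 2.70 in female buds. Female buds therefore had almost no transcripts of these 7 genes, with 1 to 4 of the 7 at 0 counts in each library. The 7 were chosen with the study's sex differences in these same libraries known. Genes of tapetal cell fate in the study's anther list were left out. The study reports none of those as significantly higher in males than in females. The low female sums of the chosen genes are thus not an independent check of the labels. The sums do not show each marker. CpMMD1 had only 2 and 3 counts in males of 7–12 mm and 2 and 1 in females, and was not called between them. None of the 7 was at 0 in males or in hermaphrodites of 7–12 mm, while in hermaphrodites of 1–6 mm CpMS1 had 2 counts in replicate 1 and 0 in replicate 2. The part that stamens and other sex-specific organs take in the differences given here was not tested.

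**Figure D1:**
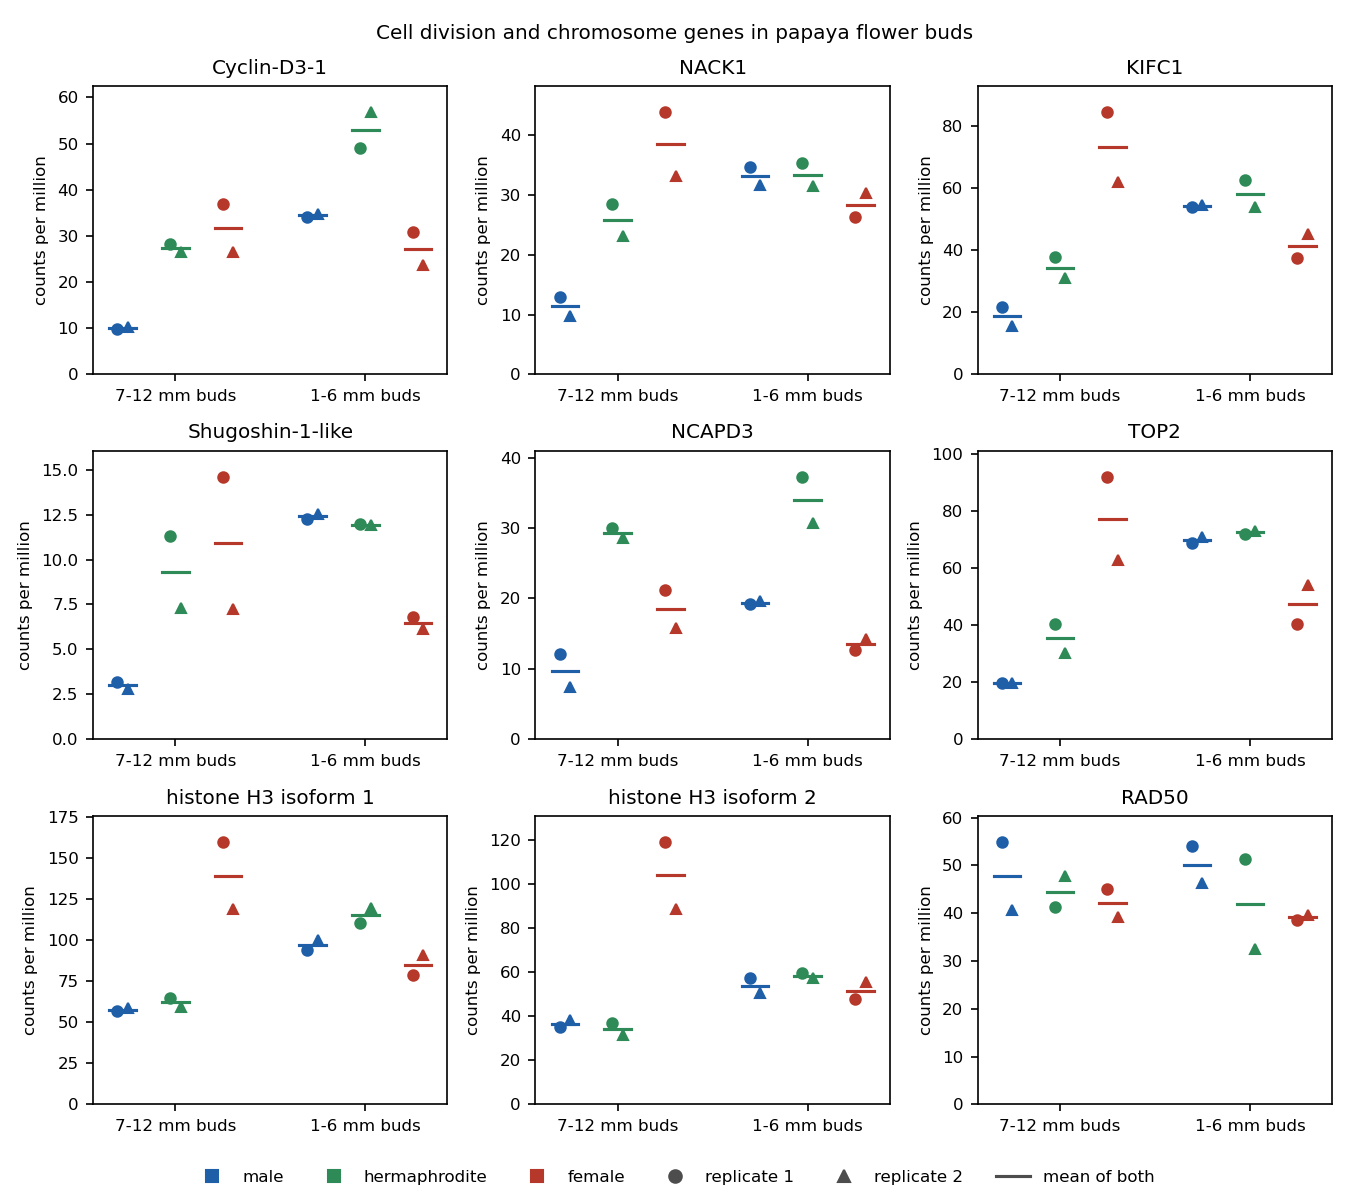
CPM of each of the 9 genes (vertical axes start at 0) in every library, with male, hermaphrodite and female buds from left to right within each size, circles for replicate 1, triangles for replicate 2 and a line for the mean of both. In male buds of 7–12 mm (leftmost) 7 of the 9 genes lie below all libraries of females of that size by 2.4- to 3.9-fold, while RAD50 ranges only between 32.5 and 54.8 CPM over all 12 libraries.

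Cyclin-D3-1 (evm.model.supercontig_200.13, on scaffold scf7180000009200 of the PacBio assembly of papaya at 778100–779499, minus strand, 4 exons) encodes a D-type cyclin, the partner of the kinase that opens the way to DNA synthesis. In buds of 7–12 mm it had 9.74 and 10.2 CPM in males (replicates 1 and 2), 28.3 and 26.4 in hermaphrodites and 36.9 and 26.6 in females. In buds of 1–6 mm it had 34.1 and 34.8 CPM in males, 49.0 and 56.8 in hermaphrodites and 30.8 and 23.7 in females. Both male libraries of 7–12 mm were thus below the other 10 and both hermaphrodite libraries of 1–6 mm above them, while the 4 groups between overlapped one another in the order of their means. From its lowest to its highest group mean the level spanned 5.3-fold, the widest range of the 9 genes.

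A pair of the genes encodes kinesins, the motors that walk along microtubules. NACK1 (evm.model.supercontig_3.468, scaffold scf7180000009196 at 3771450–3775674, plus strand, 14 exons) is known from tobacco to drive the phragmoplast, which builds the new cell wall. It had 13.0 and 9.77 CPM in males, 28.4 and 23.1 in hermaphrodites and 43.8 and 33.1 in females of 7–12 mm, an order in which no 2 groups overlapped. Between the sexes at 1–6 mm its levels were close, at 34.7 and 31.6 CPM in males, 35.3 and 31.4 in hermaphrodites and 26.4 and 30.3 in females. KIFC1 (evm.model.supercontig_81.9, scaffold scf7180000007921 at 82273–87942, plus strand, 17 exons) carries the name of a minus-end-directed kinesin that in animals helps to form the spindle. It followed the same order at 7–12 mm, with 21.7 and 15.7 CPM in males, 37.7 and 31.1 in hermaphrodites and 84.4 and 62.0 in females. At 1–6 mm it had 54.1 and 54.7 CPM in males and 62.6 and 53.9 in hermaphrodites, all above the 37.4 and 45.3 in females.

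Shugoshin-1-like and NCAPD3 act on mitotic and meiotic chromosomes. Shugoshins protect the cohesin at centromeres until sister chromatids part, and the papaya gene (evm.model.supercontig_53.153, scaffold scf7180000007804 at 42445–46826, plus strand, 12 exons) was one of the low-abundance genes here. It had 3.19 and 2.81 CPM in males, 11.3 and 7.29 in hermaphrodites and 14.6 and 7.26 in females of 7–12 mm. Both male libraries lay below the rest, and hermaphrodites overlapped females. Among buds of 1–6 mm it had 12.3 and 12.5 CPM in males, 12.0 and 11.9 in hermaphrodites and 6.81 and 6.14 in females, so that here it was the female libraries that stood below the others.

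NCAPD3 (evm.model.supercontig_16.181, scaffold scf7180000007705 at 904182–914562, minus strand, 9 exons) is named for a subunit of condensin II, the complex that compacts chromosomes. Unlike the other 8 genes, it had its 2 highest group means in hermaphrodites. The levels at 7–12 mm were 12.1 and 7.41 CPM in males, 30.0 and 28.6 in hermaphrodites and 21.21 and 15.74 in females. Those at 1–6 mm were 19.2 and 19.6 CPM in males, 37.2 and 30.8 in hermaphrodites and 12.7 and 14.3 in females. All 4 hermaphrodite libraries lay above the 8 of 'AU9', and since hermaphrodites were the only 'SunUp' plants, this difference is one of cultivar as much as of sex.

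TOP2 encodes DNA topoisomerase 2, which passes one DNA double strand through another and so separates copied chromosomes. Its model (evm.model.supercontig_125.26, scaffold scf7180000007698 at 236587–239034, minus strand, 8 exons) had 19.8 and 19.7 CPM in males, 40.4 and 30.4 in hermaphrodites and 92.0 and 63.0 in females of 7–12 mm. Smaller buds, of 1–6 mm, had 69.0 and 70.9 CPM in males, 72.2 and 73.2 in hermaphrodites and 40.4 and 54.3 in females. The order of the sexes at 7–12 mm was male, hermaphrodite, female from low to high with no overlap, and at 1–6 mm female buds were the lowest, also with no overlap.

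The 2 histone H3 models are neighbours on scaffold scf7180000007911. Isoform 1 (evm.model.supercontig_84.92, 672577–672987) and isoform 2 (evm.model.supercontig_84.93, 674428–674838) each have 1 exon of 411 bp on the plus strand, with 1440 bases between them. Histone H3 is a core protein of the nucleosome, made in bulk while DNA is copied. Reads that aligned to more than 1 place were counted at each, so near-identical copies could share reads and the values of the 2 models are uncertain as separate genes. Isoform 1 had 56.6 and 58.8 CPM in males, 64.9 and 59.4 in hermaphrodites and 159 and 119 in females of 7–12 mm. The same gene at 1–6 mm had 93.6 and 99.9 CPM in males, 111 and 119 in hermaphrodites and 78.5 and 90.8 in females. Males and hermaphrodites of 7–12 mm were thus close to each other and both well below females of that size.

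Isoform 2 split the groups in the same way. In 7–12 mm buds it had 34.97 and 38.06 CPM in males, 36.9 and 31.3 in hermaphrodites and 119 and 88.7 in females. In 1–6 mm buds it had 57.3 and 50.3 CPM in males, 59.4 and 57.5 in hermaphrodites and 47.8 and 55.4 in females. Females of 7–12 mm were above the other 10 libraries, and males and hermaphrodites of that size, which overlapped, below the 6 libraries of 1–6 mm. The ratio of isoform 2 to isoform 1 counts was 0.618 and 0.647 in males, 0.568 and 0.528 in hermaphrodites and 0.745 and 0.748 in females of 7–12 mm, and between 0.481 and 0.612 in the libraries of 1–6 mm, so the 2 models did not move in fixed proportion.

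RAD50 (evm.model.supercontig_157.48, scaffold scf7180000007974 at 253584–267341, plus strand, 27 exons) belongs to the complex that binds broken DNA ends for repair and for meiotic recombination. It was the gene with the least variation, with 54.8 and 40.6 CPM in males, 41.2 and 47.8 in hermaphrodites and 45.0 and 39.3 in females of 7–12 mm. In 1–6 mm buds the levels of RAD50 were 54.1 and 46.2 CPM in males, 51.3 and 32.5 in hermaphrodites and 38.5 and 39.7 in females. Each group overlapped the next in the order of means, and the highest group mean was 1.28 times the lowest. RAD50 was listed by the study only for a comparison of 'Zhonghuang' male pistillodes, whose libraries were not analysed here. Alone among these genes it was not listed for a difference between sexes in these buds. Its contrast with the others is thus not independent of how the genes were listed.

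Levels of different genes were compared per length, as RPKM (the CPM divided by the coding length in kilobases, mean ± SD over the 2 libraries of a group). In males of 7–12 mm the histone H3 models led with 140 ± 3.73 and 88.9 ± 5.31 RPKM. RAD50, with 12.1 ± 2.55, came next, above TOP2 with 11.4 ± 0.0358 and Cyclin-D3-1 with 9.40 ± 0.321, and the ranges of RAD50 and TOP2 overlapped within 1 SD. In females of 7–12 mm the histone H3 models had 338 ± 70.3 and 253 ± 51.9 RPKM, followed by TOP2 with 44.8 ± 11.8, KIFC1 with 30.7 ± 6.65 and Cyclin-D3-1 with 29.9 ± 6.92. NACK1 had 13.3 ± 2.61, RAD50 10.7 ± 1.01, Shugoshin-1-like 9.48 ± 4.50 and NCAPD3 4.61 ± 0.964 RPKM in the same female buds, so that RAD50, next to the histones in males, stood below 4 other genes besides them in females.

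Between sexes, a gene was called where edgeR's quasi-likelihood test gave a Benjamini-Hochberg adjusted p under 0.05 over all 19339 tested genes and a fold of more than 2. The study drew its lists from genes that differ between sexes in these same libraries, so the counts between sexes describe the 9 genes and are not independent evidence of a direction. The comparisons also share groups with one another. In males over females of 7–12 mm, 7 of the 9 genes were called lower and none higher, where 7.69% of all tested genes were called lower. The median log2 fold change was -1.68 over the 9 genes and 0.02 over all genes tested. Among the falls were those of NACK1, at -1.75 ± 0.19 (standard error, adjusted p = 0.000106 from edgeR), and of Shugoshin-1-like, at -1.86 ± 0.33 (adjusted p = 0.00166 from edgeR). NCAPD3 had a log2 fold change of -0.91 ± 0.23 and an adjusted p of 0.0123 from edgeR, short of the fold limit, and passed it without replicate 1 of the male 7–12 mm buds (-1.32) or without replicate 2 of the female 7–12 mm buds (-1.11). In 8 genes both male libraries were below both female ones, as in 28.7% of tested genes. RAD50 was at 0.18 ± 0.21.

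Against hermaphrodites of 7–12 mm, 4 genes were called lower in males and none higher, where 4.3% of tested genes were called lower. These were Shugoshin-1-like at -1.63 ± 0.32, NCAPD3 at -1.57 ± 0.23, Cyclin-D3-1 at -1.46 ± 0.19 and NACK1 at -1.17 ± 0.19 on the log2 scale, with adjusted p from 0.000673 to 0.00680 by edgeR. Without replicate 1 of the hermaphrodite 7–12 mm buds Shugoshin-1-like was at -1.27 with an adjusted p of 0.0604 by edgeR. KIFC1 at -0.87 ± 0.20 and TOP2 at -0.85 ± 0.21 passed the p threshold (edgeR's adjusted p = 0.0140 and 0.0186) but not the fold limit. KIFC1 passed both without replicate 1 of the male 7–12 mm buds, at -1.14, and TOP2 without replicate 2 of the hermaphrodite 7–12 mm buds, at -1.04. The histone genes were at -0.11 ± 0.14 and 0.09 ± 0.16, with intervals of 2 standard errors each side of -0.40 to 0.18 for isoform 1 and -0.22 to 0.41 for isoform 2, which leave out a 2-fold difference either way.

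In hermaphrodites over females of 7–12 mm, the genes divided otherwise. TOP2 at -1.13 ± 0.20, KIFC1 at -1.09 ± 0.19 and the histone genes at -1.16 ± 0.14 and -1.60 ± 0.16 were called lower in hermaphrodites (adjusted p = 0.00214, 0.00200, 0.000250 and 6.51e-05 by edgeR), 4 of the 9 against 7.53% of all tested genes. Cyclin-D3-1 at -0.22 ± 0.18, Shugoshin-1-like at -0.23 ± 0.31, NACK1 at -0.58 ± 0.19 and NCAPD3 at 0.66 ± 0.22 were not called, although the edgeR p of NACK1 (adjusted p = 0.0394) and of NCAPD3 (adjusted p = 0.0486) were under the threshold. The calls of TOP2, KIFC1 and histone H3 isoform 1 lay close to the fold limit. Without replicate 1 of the female 7–12 mm buds only the call of histone H3 isoform 2 was left, with TOP2 at -0.82, KIFC1 at -0.85 and histone H3 isoform 1 at -0.93, and without replicate 2 of the hermaphrodite 7–12 mm buds only those of the 2 histone genes. Summed as 1 gene, the histone models were at -1.34 ± 0.14 in this comparison and at -1.37 ± 0.15 in males over females.

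**Figure D2:**
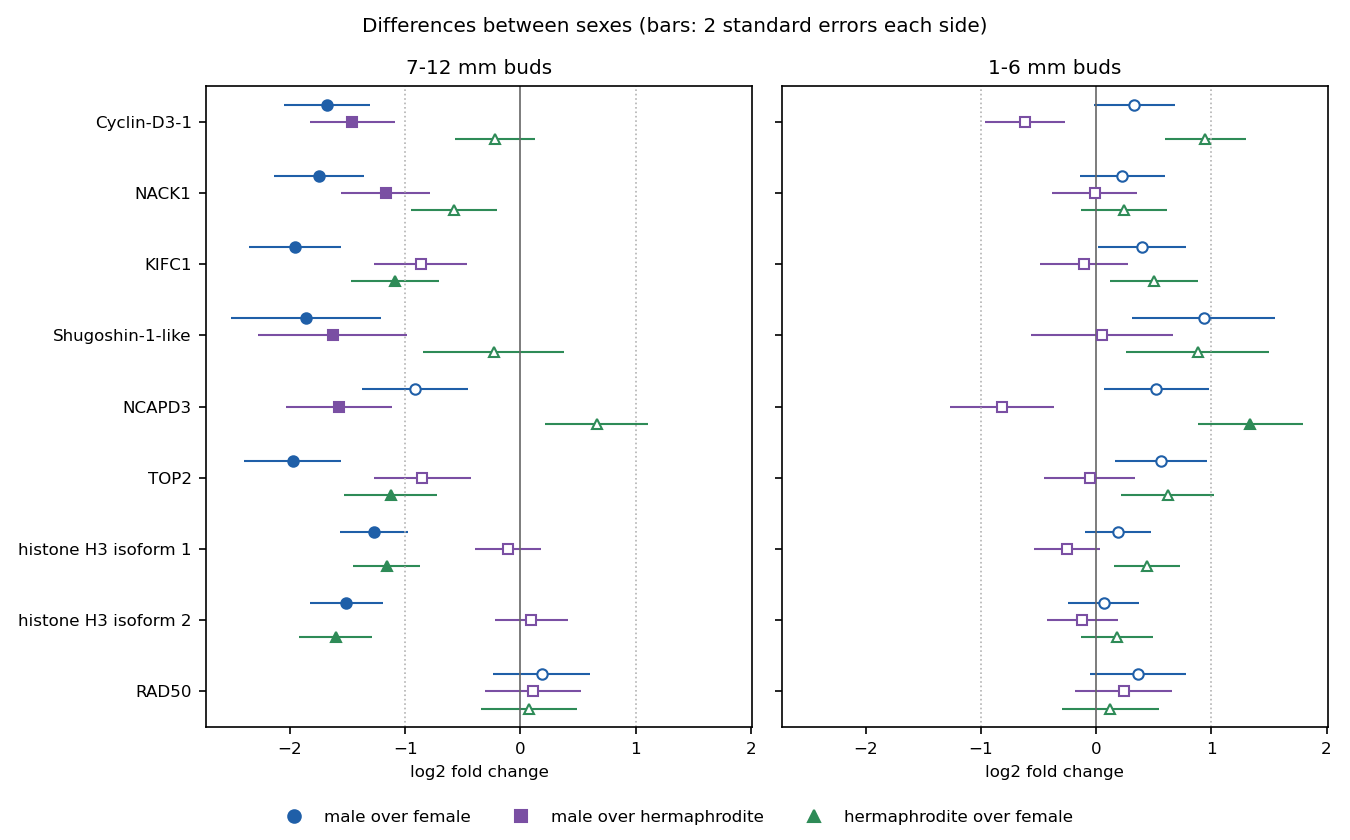
Log2 fold changes between sexes for each gene in 7–12 mm buds (left) and 1–6 mm buds (right), as circles for male over female, squares for male over hermaphrodite and triangles for hermaphrodite over female, with bars of 2 standard errors each side and filled symbols for called genes. Dotted lines mark the fold limit of 1 on the log2 scale. At 7–12 mm 15 symbols are filled, all to the left of 0, and at 1–6 mm only that of NCAPD3 in hermaphrodites over females, at 1.34, is filled.

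In buds of 1–6 mm the picture differed. No gene was called in males over females (12.8% of all tested genes were called in either direction), and all 9 had log2 fold changes above 0, from 0.07 ± 0.15 for histone H3 isoform 2 to 0.93 ± 0.31 for Shugoshin-1-like (adjusted p = 0.0512 by edgeR), with a median of 0.36 against 0.05 over all tested genes. Both male libraries were above both female ones in 8 genes, as in 35.9% of tested genes. At an unadjusted edgeR p under 0.05 there were 3, TOP2, Shugoshin-1-like and NCAPD3. The share of all tested genes at that threshold was not taken. With an adjusted edgeR p under 0.05 and no fold limit none of the 9 passed, as against 5062 of 19339 tested genes. DESeq2 called 0 of the 9 and 2404 of 19339 tested genes. In males over hermaphrodites none was called by edgeR or DESeq2 either (4.59% of all tested genes were called in either direction by edgeR). NCAPD3 at -0.81 ± 0.22 and Cyclin-D3-1 at -0.61 ± 0.17 were the 2 with an unadjusted p under 0.05. With an adjusted edgeR p under 0.05 and no fold limit only NCAPD3 passed, and 2059 of 19339 tested genes did.

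Hermaphrodites over females of 1–6 mm gave 1 call, NCAPD3, higher in hermaphrodites at 1.34 ± 0.23 (adjusted p = 0.00198 by edgeR), where 5.15% of all tested genes were called higher. Cyclin-D3-1 at 0.95 ± 0.18 (adjusted p = 0.00313 by edgeR) fell just short of the fold limit and passed it without replicate 1 of the female 1–6 mm buds (1.15) or of the hermaphrodite 1–6 mm buds (1.06). All 9 log2 fold changes were above 0, with a median of 0.50 against 0.03 over all genes tested.

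The change with bud size was then compared within each sex. The lists for these buds compare sexes within a bud size and not the sizes themselves. They were still drawn on the same libraries, in which a low level in males of 7–12 mm enters both comparisons. All of these genes but RAD50 are listed for buds of 7–12 mm, and only NCAPD3 also for those of 1–6 mm. The changes with size are thus not independent of the listing. In males, 5 genes fell in 7–12 mm buds relative to 1–6 mm buds, where 2.77% of all tested genes were called lower, and none rose. Shugoshin-1-like had the largest fall, at -2.03 ± 0.33 on the log2 scale or 4.1-fold (adjusted p = 0.00368 by edgeR). TOP2 fell 3.54-fold and Cyclin-D3-1 3.46-fold, at -1.82 ± 0.21 and -1.79 ± 0.19, and the kinesins NACK1 and KIFC1 2.89-fold and 2.87-fold, at -1.53 ± 0.19 and -1.52 ± 0.20, each with an adjusted p of 0.00133 or less by edgeR. Both size classes differed in the same direction within each replicate for these 5, for example by -1.79 and -1.75 in Cyclin-D3-1 (log2 differences in replicates 1 and 2).

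The histone genes and NCAPD3 changed less with size in males. NCAPD3 was at -0.98 ± 0.23 (adjusted p = 0.0241 by edgeR), and at -1.39 and called without replicate 1 of the male 7–12 mm buds. Histone H3 isoform 1 was at -0.75 ± 0.14 and isoform 2 at -0.56 ± 0.16, both with an edgeR adjusted p under the threshold (0.00960 and 0.0472) and a fold under 2. RAD50 was at -0.07 ± 0.21. The median over the 9 genes was -1.52 and that over all tested genes 0.01, and in 8 genes both libraries of 7–12 mm lay below both of 1–6 mm, as in 23.8% of tested genes.

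In hermaphrodites, the 7–12 mm libraries also lay below the 1–6 mm libraries in 8 genes, as in 23.2% of tested genes, and the median log2 fold change was -0.76, against 0.00 over all genes. One gene was called, TOP2, lower in 7–12 mm buds at -1.03 ± 0.20 (adjusted p = 0.0191 by edgeR), where 0.972% of tested genes were called lower. That call lies at the fold limit and was lost when replicate 1 or replicate 2 of the hermaphrodite 1–6 mm buds, or replicate 2 of the hermaphrodite 7–12 mm buds, was left out, which gave a count of 0 each time. Cyclin-D3-1 at -0.95 ± 0.18, histone H3 isoform 1 at -0.89 ± 0.14 and isoform 2 at -0.77 ± 0.16 had an edgeR adjusted p of 0.0146, 0.00832 and 0.0220 with a fold under 2. NACK1 at -0.37 ± 0.19, Shugoshin-1-like at -0.35 ± 0.31 and NCAPD3 at -0.22 ± 0.22 did not pass.

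In females, all 9 genes had log2 fold changes above 0 with size, with a median of 0.72 against 0.01 over all tested genes. Histone H3 isoform 2 was called higher in 7–12 mm buds, at 1.01 ± 0.15 (adjusted p = 0.00728 by edgeR), where 0.745% of tested genes were called higher. KIFC1 at 0.83 ± 0.19 and histone H3 isoform 1 at 0.72 ± 0.14 had an edgeR adjusted p of 0.0355 and 0.0207 with a fold under 2. The call was at the fold limit. It was lost without replicate 1 of the female 1–6 mm buds or replicate 1 of the female 7–12 mm buds, which gave 0 calls, while without replicate 2 of the female 7–12 mm buds KIFC1 at 1.03 and Shugoshin-1-like at 1.17 were called too, for 3 in all. The within-replicate changes differed in size, as in TOP2 with log2 differences of 1.18 in replicate 1 and 0.21 in replicate 2. In 7 genes both libraries of 7–12 mm lay above both of 1–6 mm, as in 25% of tested genes.

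**Figure D3:**
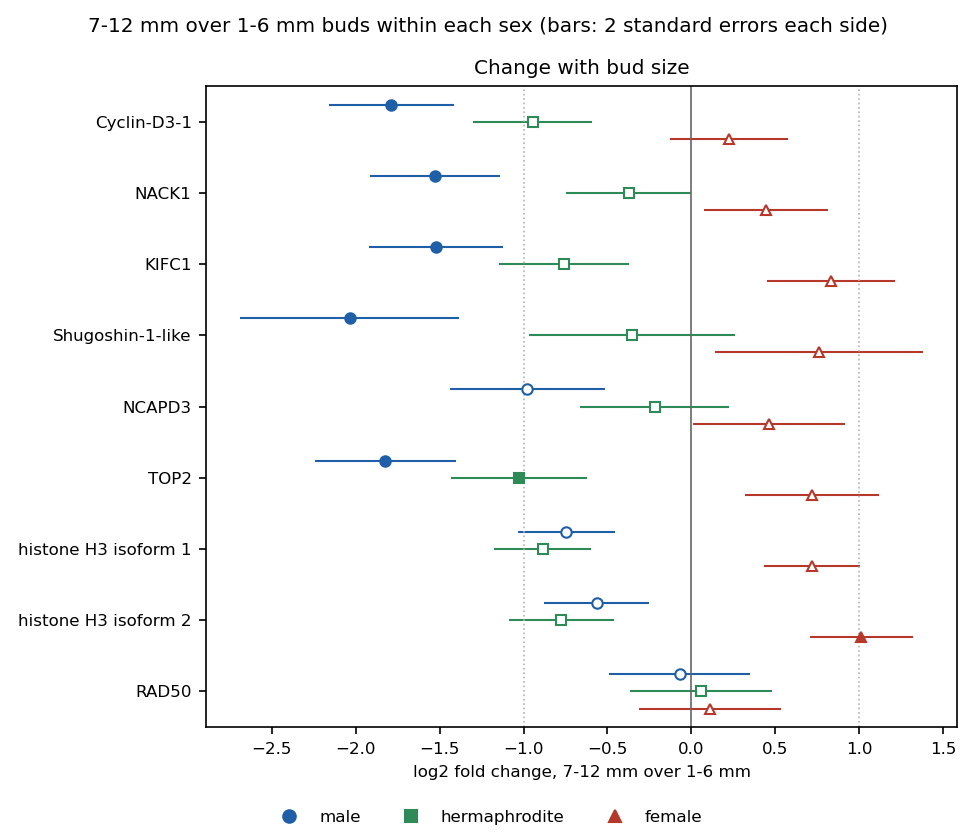
Log2 fold change of each gene in 7–12 mm over 1–6 mm buds within males (circles), hermaphrodites (squares) and females (triangles), with bars of 2 standard errors each side, filled symbols for called genes and dotted lines at the fold limit. For 7 of the 9 genes the symbols run from males to hermaphrodites to females from left to right, as in Cyclin-D3-1 at -1.79, -0.95 and 0.22, although those of RAD50 all lie near 0, while the histone genes have males and hermaphrodites together.

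Whether the sexes differed in this change was tested with an interaction term, the log2 difference between sexes at 7–12 mm minus that at 1–6 mm. Apart from RAD50 the genes were listed for a sex difference at 7–12 mm, and only NCAPD3 also at 1–6 mm. That listing favours this term, so the counts describe the 9 genes and are not independent evidence. Between males and females 8 of the 9 genes passed, all with a more negative change in males, where 2.82% of all tested genes were called in that direction, and the median was -1.98 against 0.01 over all genes. The size-dependent differences ran from -2.80 ± 0.45 in Shugoshin-1-like and -2.54 ± 0.29 in TOP2 through -2.35 ± 0.28 in KIFC1 and -2.01 ± 0.26 in Cyclin-D3-1 to -1.58 ± 0.22 in histone H3 isoform 2, -1.46 ± 0.20 in isoform 1 and -1.44 ± 0.32 in NCAPD3, with edgeR adjusted p from 0.00172 to 0.0261. Both replicates gave a negative value for each gene on their own, for example -2.98 and -2.05 in TOP2. The call of NCAPD3 was lost without either female 1–6 mm library, either male 1–6 mm library or replicate 1 of the female 7–12 mm buds (adjusted p from 0.0638 to 0.116 by edgeR), with all libraries thinned to the smallest total (-1.17, adjusted p = 0.124 by edgeR), and without both libraries of the highest unaligned share (-1.42, adjusted p = 0.104 by edgeR). The count was 7 or 8 with any 1 library left out. RAD50 was at -0.18 ± 0.30 (adjusted p = 0.827 by edgeR).

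Between hermaphrodites and females 5 genes passed the same test, where 1.13% of tested genes were called in that direction. Histone H3 isoform 2 was at -1.79 ± 0.22, TOP2 at -1.75 ± 0.28, histone H3 isoform 1 at -1.60 ± 0.20, KIFC1 at -1.59 ± 0.27 and Cyclin-D3-1 at -1.17 ± 0.25, with edgeR adjusted p from 0.00815 to 0.0389. In the fits without 1 library that lost most of these calls, calls over all tested genes fell too. The loss is thus no particular trait of the listed genes. These calls were lost more often than those between males and females when 1 library was left out. None was left without replicate 1 of the female 1–6 mm buds, and 2, both of histone genes, were left without replicate 1 of the female 7–12 mm buds, without either hermaphrodite 1–6 mm library or without replicate 2 of the hermaphrodite 7–12 mm buds. With any 1 library left out other than replicate 2 of the male or female 7–12 mm buds, Cyclin-D3-1 was no longer called. Without replicate 2 of the female 7–12 mm buds Shugoshin-1-like was called as well, at -1.52, for a count of 6. With both histone models summed as 1 gene the value was -1.68 ± 0.20 (adjusted p = 0.00758 by edgeR).

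Between males and hermaphrodites no interaction was called, where 0.512% of tested genes were called in either direction. At an unadjusted edgeR p under 0.05 there were 6, and the share of all tested genes at that threshold was not taken. With an adjusted edgeR p under 0.05 and no fold limit none of the genes passed, as against 106 of 19339 tested genes. DESeq2 called 1 of the members, NACK1, and 357 of 18214 tested genes. Blocked by replicate number, the fit called 443 of 19339 tested genes in this comparison, as against 99 without the block. Of the 9 it called 2, NACK1 at -1.16 (adjusted p = 0.0133 by edgeR) and Shugoshin-1-like at -1.72 (adjusted p = 0.0240 by edgeR). Without the block these genes were at -1.16 ± 0.27 and -1.68 ± 0.44 (adjusted p = 0.104 and 0.145 by edgeR). The histone genes were at 0.14 ± 0.20 and 0.21 ± 0.22.

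Over the 12 libraries the levels of 7 of the genes were positively correlated. All 7 are listed for 7–12 mm buds from these same libraries and were called lower in males than in females there. Their correlation is thus not independent of the listing, and r among unlisted genes was not taken. The 21 pairs among Cyclin-D3-1, NACK1, KIFC1, TOP2, Shugoshin-1-like and the 2 histone genes had Pearson's r of log2 CPM between 0.483 and 0.973, with a median of 0.872, given as a description since the libraries share sexes, sizes and platforms. The highest was that of KIFC1 and TOP2 and the lowest that of Cyclin-D3-1 and histone H3 isoform 2. NCAPD3 had r of 0.125 to 0.791 with these 7 genes, highest with Cyclin-D3-1 and Shugoshin-1-like, and RAD50 -0.236 to 0.0596 with the other 8. With the mean of each replicate removed the 21 pairs ranged from 0.480 to 0.977.

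**Figure D4:**
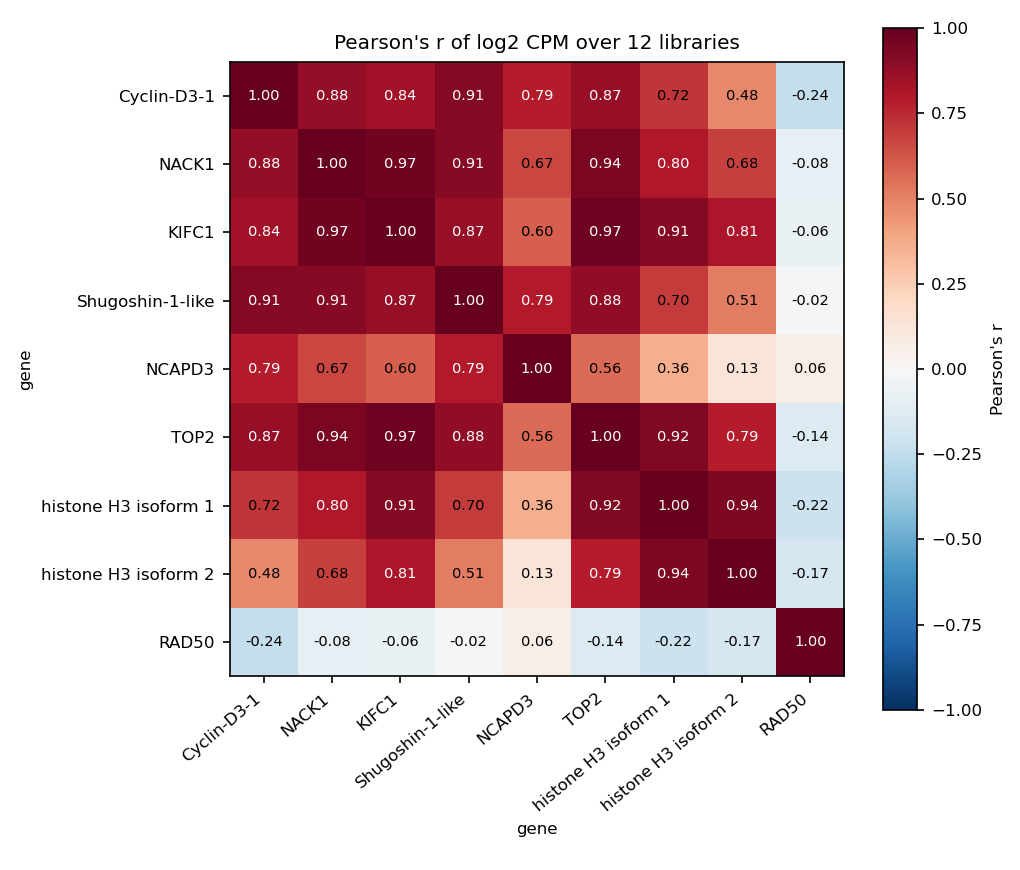
Pearson's r of log2 CPM between each pair of the 9 genes over the 12 libraries, coloured from blue at -1 to red at 1. The 7 genes other than NCAPD3 and RAD50 are in red throughout, at 0.483 or above, and the RAD50 row and column are pale, between -0.236 and 0.0596.

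Among the other 74 genes of the study's lists, a 1,4-beta-D-xylan synthase gene was most like NACK1 (r = 0.972), KIFC1 (0.979) and TOP2 (0.952) over the 12 libraries. The cytochrome P450 gene CYP83B1 was most like Cyclin-D3-1 (0.935) and Shugoshin-1-like (0.931), CYP90A1 most like histone H3 isoform 1 (0.891) and an AINTEGUMENTA gene, the second of 2 in the lists, most like isoform 2 (0.858). Callose synthase 10 was most like NCAPD3 (0.898). For RAD50 the highest was a pentatricopeptide repeat protein gene at 0.707.

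Of the lists fixed beside the 9 genes, that of organ growth regulators holds 5 transcription factors known in Arabidopsis to promote cell proliferation or meristem activity, namely 2 AINTEGUMENTA (ANT) genes, AIL1, AIL5 and WOX4. Their summed level was 52.4 and 45.2 CPM in males, 107 and 89.3 in hermaphrodites and 237 and 185 in females of 7–12 mm. The sums at 1–6 mm were 149 and 150 CPM in males, 205 and 161 in hermaphrodites and 197 and 203 in females. All 5 were called lower in males than in females of 7–12 mm (median log2 fold change -2.49), and 4 fell with size in males (median -1.47) while none was called with size in females (median 0.20). The interaction between males and females was called in 3 of the 5. They were the second ANT gene at -2.66 ± 0.27, WOX4 at -1.98 ± 0.32 and the first ANT gene at -1.67 ± 0.43. AIL5 at -0.76 ± 0.17 passed the p threshold (adjusted p = 0.0274 by edgeR) but not the fold limit. AIL1 at -0.88 ± 0.50 passed neither (adjusted p = 0.376 by edgeR). These genes too were taken from the study's lists. In the percentages given above, 7.69% of tested genes were lower in males than in females of 7–12 mm, 2.77% fell with size in males and 2.82% had such an interaction.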

How the data were processed

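Reads were quality-checked by the authors with FastQC (0.11.5) and trimmed in Trimmomatic (0.36). HISAT2 (2.0.5) made the alignments, SAMtools (1.3.1) handled them, and featureCounts (1.5.2) assigned reads to exons. What the authors deposited are raw read counts per gene model, whole and without normalization, for coding sequences mapped onto the PacBio assembly. Per the file headers, all 12 libraries had one strand setting and none was counted by read pair, so mates of replicate 2 were counted singly. None of the 9 models shares an exon with another model, on either strand, and each lies on 1 scaffold.

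Low-count genes were removed by filterByExpr (minimum count 10), libraries were scaled by TMM, and edgeR 4.0.16 (R 4.3.3) fitted 1 coefficient per group to the 12 libraries, with a robust quasi-likelihood fit and its F test. Calls needed an adjusted p under 0.05 over all 19339 tested genes and a fold above 2. The standard error of a log2 fold change is its size divided by the root of F, and log2 CPM used a prior count of 2. Figures were drawn with matplotlib 3.10.9. The steps were tested on simulated counts that had the same spread for all genes and no replicate effect. Those counts thus do not show how the steps act on libraries paired by replicate number. The study's methods call the replicates biological. An exact test of 2 libraries against 2 cannot give a p below 0.333, so tests rest on the fit over all genes.

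Libraries with the same replicate number share a sequencing platform, and their deviations from group means correlated between groups (r from 0.734 to 0.839, median 0.782, 15 pairs of groups). The numbers therefore pair the samples. As the study's methods have no such term, the block was an alternative. The standard errors given here come from the fit without it. The common biological coefficient of variation, edgeR's spread between libraries of a group, was 0.307 without the block and 0.110 with it. Further alternatives were a fit without the low-count filter, one that kept genes at 1 CPM or more in 2 libraries, RLE scaling, DESeq2 1.42.0, dropping the fold limit, thinning to the smallest total, leaving out each library, leaving out both libraries with the highest unaligned share in the study's read summary (replicate 2 of male and hermaphrodite 1–6 mm buds), and summing the histone models.

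The named genes are the 9 genes, the stamen marker and growth lists, and for each of the 9 the most alike of the study's other listed genes. Members and lists were chosen with earlier results of these data known. A wider list of cell division genes could not be drawn, because 0 file identifiers matched the RefSeq gene table used here. 'Zhonghuang' libraries, qPCR and sequences were not used here.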

Additional observations from a re-analysis of the deposited data

Results flagged for a closer look

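The interaction term tested whether the change with bud size differed between sexes, and 8 of the 9 genes passed it between males and females. The log2 values, the male change minus the female change, were -2.01 in Cyclin-D3-1, -1.98 in NACK1, -2.35 in KIFC1, -2.54 in TOP2, -1.46 in histone H3 isoform 1, -1.58 in histone H3 isoform 2, -2.80 in Shugoshin-1-like and -1.44 in NCAPD3. Between hermaphrodites and females 5 genes passed, with -1.17 in Cyclin-D3-1, -1.59 in KIFC1, -1.75 in TOP2, -1.60 in histone H3 isoform 1 and -1.79 in histone H3 isoform 2. Groups had 2 libraries each, too few to look for single samples far from the rest.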

How the results depend on the processing

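With 1 library left out in turn, the number of the 9 genes called stayed within 7 to 8 for males over females, 3 to 5 for males over hermaphrodites and 1 to 4 for hermaphrodites over females of 7–12 mm, and 0, 0 and 1 to 2 for the same comparisons at 1–6 mm. For the change with size it was 5 to 6 in males, 0 to 1 in hermaphrodites and 0 to 3 in females, and for the interactions 7 to 8 (male and female), 0 (male and hermaphrodite) and 0 to 6 (hermaphrodite and female). In the male and hermaphrodite interaction few or none of all tested genes were called in most left-out fits, so 0 there is no particular trait of the 9. Calls of the hermaphrodite and female interaction fell and rose over all tested genes too. With the replicate number as a block, which pairs libraries of one platform, the male and hermaphrodite interaction gave 2 calls instead of 0. Calls over all 19339 tested genes rose there from 99 to 443. No other call among the 9 changed with the block. For that interaction DESeq2 gave 1, where it called 357 of 18214 tested genes. It gave 0 for the female change with size, as did RLE size factors and thinning. Thinning gave 2 for the hermaphrodite change with size. Without both libraries of the highest unaligned share that count was 0 and the hermaphrodite and female interaction 1. Wherever a library was left out, the lone sample of its group is assumed to vary like the other groups. In NCAPD3 the male and female interaction was not called with thinning (-1.17) or without both libraries (-1.42). Without a fold limit the counts were 1 for males over hermaphrodites and 4 for hermaphrodites over females of 1–6 mm, and 8, 4 and 3 for the size change in males, hermaphrodites and females. Over all 19339 tested genes they were 2059 and 4814 for those sex comparisons, and 2116, 1050 and 1056 for the size change. Signs turned only in values that were not called: NACK1 in males over hermaphrodites of 1–6 mm with thinning (0.0694), RAD50 in the hermaphrodite size change with thinning (-0.0506) and without both libraries (-0.21) and in the male and hermaphrodite interaction without both libraries (0.0322), and histone H3 isoform 2 in males over hermaphrodites of 7–12 mm when summed (-0.0317).

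Leaving out 1 library also turned the sign of some values near 0. For RAD50 the ranges were -0.0578 to 0.357 in males over females, -0.131 to 0.278 in males over hermaphrodites and -0.0323 to 0.179 in hermaphrodites over females of 7–12 mm. At 1–6 mm they were -0.0304 to 0.627 in males over hermaphrodites and -0.264 to 0.394 in hermaphrodites over females. RAD50 ranged from -0.31 to 0.11 with size in males and from -0.21 to 0.45 in hermaphrodites, and from -0.52 to 0.14 and -0.32 to 0.34 in the interactions of hermaphrodites with males and with females. Cyclin-D3-1 ranged from -0.433 to 0.0431 and Shugoshin-1-like from -0.64 to 0.37 in hermaphrodites over females of 7–12 mm, and Cyclin-D3-1 from -0.0403 to 0.435 with size in females. Histone H3 isoform 2 ranged from -0.0173 to 0.219 in males over hermaphrodites of 7–12 mm and from -0.0406 to 0.172 in males over females of 1–6 mm. NACK1 and KIFC1 ranged from -0.0916 to 0.0778 and from -0.206 to 0.0126 in males over hermaphrodites of 1–6 mm. The cause of these changes was not tested. Having 2 libraries per group and fewer counts in replicate 2 limits the precision, most of all for Shugoshin-1-like with its lowest count of 19.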

Other observations

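None of the 9 genes was called between replicates 2 and 1 over the 6 groups. As only 4.5% of tested genes were called, this is no particular trait of the 9. Their log2 differences were all below 0, from -0.34 to -0.02, with edgeR adjusted p of 0.138 or more. The gene models lying nearest to the 9 did not share their pattern in most cases. The model nearest to TOP2, at a distance of 975 bases, had r of -0.788 with it over the 12 libraries and a log2 fold change of 0.49 in males over females of 7–12 mm, and the model nearest to KIFC1, at 1103 bases, had r of -0.672 and 1.19. The model nearest to histone H3 isoform 2 apart from isoform 1, at 510 bases, had r of 0.816 with it and a log2 fold change of -0.55 (adjusted p = 0.0638 by edgeR) in that comparison.

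The petal and stamen identity genes PI and AP3, which were not among the 9, had their highest 7–12 mm levels in males. PI had 229 and 275 CPM in males, 178 and 210 in hermaphrodites and 99.3 and 80.2 in females of 7–12 mm. AP3 isoform 1 had 593 and 633 CPM in males, 321 and 368 in hermaphrodites and 154 and 156 in females of that size. CpMS1, one of the stamen markers, differed between the male 1–6 mm libraries, with 56.95 CPM in replicate 1 and 6.06 in replicate 2, whereas TOP2 and Cyclin-D3-1 had 69.0 and 70.9 and 34.1 and 34.8 CPM in the same libraries.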
